A study of Mus musculus with 6 samples.

Results

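Small leucine-rich proteoglycans (SLRPs) are secreted proteins of the extracellular matrix, and 10 of their genes were followed here in differentiating DM1 myoblasts: Fmod, Dcn, Bgn, Lum, Ogn, Prelp, Kera, Omd, Aspn and Podn. They were 10 of the 55421 genes in the count table and were found by gene name. The set was chosen from measured values, since the difference between miR-322/-503 and control had already been seen in the same libraries. Differences of these 10 genes between the groups are therefore given as a description, with standard errors and without p-values. The fit over all genes includes them, and how many of them it called is counted only to set that beside all genes.

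RNA-seq covered 3 control libraries and 3 miR-322/-503 libraries, all taken on day 4 of differentiation. Both groups were C2C12 cells, mouse myoblasts that can fuse and form myotubes, carrying a stable GFP plasmid with 200 CTG repeats in its untranslated end (CUG200), which serves as a model of myotonic dystrophy type 1 (DM1). The control line carried the empty vector, and the other line carried a pLL4.0 plasmid with a fragment encoding miR-322 and miR-503, 2 microRNAs that lie next to each other on the X chromosome. Each group was 1 drug-selected line, so an effect of the microRNAs and a difference between the lines cannot be told apart. The methods speak of biological as well as technical replicates for the assays in general, and the labels only number the libraries without naming separate cultures, so p-values measure the spread between these libraries, which may be technical. Normal myoblasts were not analysed here. The libraries held between 73532084 and 92157388 estimated counts, which corresponded to between 18383021 and 23039347 read pairs at about 4 counts per pair. The libraries say little about the microRNAs themselves: Mir322 was given 1, 7 and 2 counts in the control libraries against 17, 0 and 3, and Mir503 1, 1 and 2 against 6, 4 and 5. Myoblast and myotube markers were present in every library, with a summed level between 3916 and 5081 TPM (a level scaled to transcript length and to the library), and Acta1 and Des were the most abundant of them.

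An SLRP has a core of leucine-rich repeats that folds into a curved solenoid, and most carry chondroitin, dermatan or keratan sulfate chains. They bind fibrillar collagen and influence the diameter and spacing of its fibrils. Several of them also bind growth factors such as TGF-beta, or cell surface receptors. In muscle they belong to the connective tissue around the fibres. By sequence, Dcn, Bgn and Aspn are placed in class I, Fmod, Lum, Prelp, Kera and Omd in class II, Ogn in class III and Podn in class V.

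The mature microRNAs are shown first, because a microRNA binds its targets mainly through its seed. The 5p arms had the following sequences (RefSeq, GRCm38.p6, minus strand of the X chromosome), with the seed, bases 2 to 8, in capitals. They share the first 6 of these 7 bases.

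miR-322-5p: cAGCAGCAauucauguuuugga

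miR-503-5p: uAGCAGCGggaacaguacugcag

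The complement of the seed was searched in the longest annotated 3' untranslated region (3' UTR) of each gene. All 10 SLRP genes had a 3' UTR of at least 50 bases, with lengths from 435 bases in Omd to 2302 bases in Prelp. Only Bgn held a match, to the seed of miR-322-5p. The match began at base 1088 of the 1137 bases of the Bgn 3' UTR, near its end, at chrX:73495884-73495890 on the plus strand of GRCm38. It is shown in capitals with the 10 bases on either side.

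Bgn 3' UTR site: caagagggagTGCTGCTtatgaggtca

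One such match is common, since 24.4% of the 13416 tested genes with a 3' UTR held it, and the median log2 fold change of those genes was 0.014, against -0.024 for genes without it. No SLRP gene held a match to the seed of miR-503-5p, which was found in 4.87% of genes, or to the seeds of the 3p arms. Matches of 7 bases do not cover every kind of site, and coding sequence was not searched.

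The quasi-likelihood test of edgeR was run over all genes, and a gene was called lower or higher when its adjusted p was under 0.05 and its log2 fold change was below -1 or above 1. Of the 18140 tested genes, 959 (5.29%) were called lower and 832 (4.59%) were called higher. Kera had too few counts to be tested. Of the other 9 SLRP genes, 8 were called lower, none was called higher in edgeR or in any of the 15 alternatives run (0 also at an unadjusted p under 0.05 in edgeR), and Dcn was the exception with a log2 fold change of -0.22. The TPM values of the groups did not overlap for all 9 tested SLRP genes, with miR-322/-503 below control, as for 22.8% of all tested genes. The log2 fold changes of these 9 genes ran from -4.50 to -0.22 with a median of -2.65, while the median of all tested genes was -0.01 and 5% of all tested genes lay below -1.39. Since the set was picked from this comparison, nothing is read from these counts. In bulk RNA, fewer cells that express a gene and less RNA per cell cannot be told apart.

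**Figure D1:**
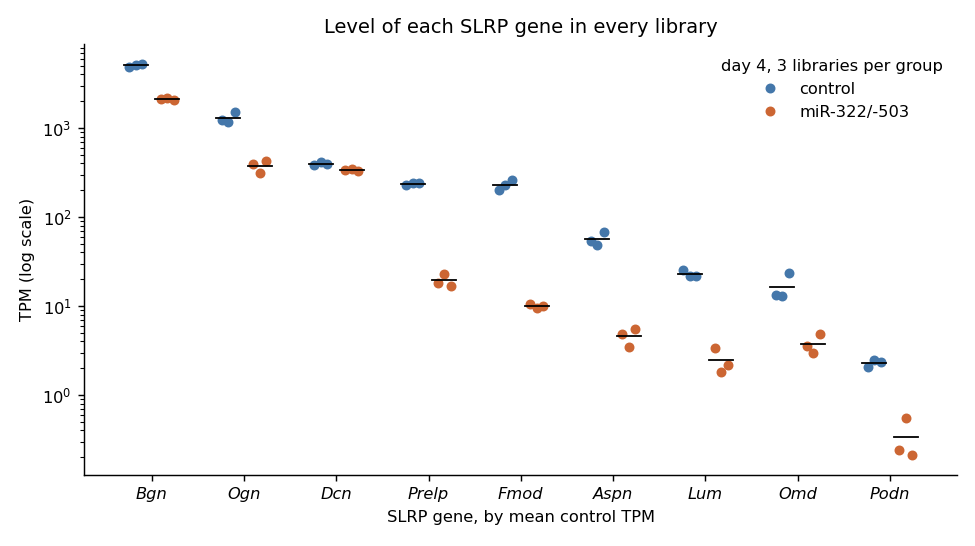
Level of 9 SLRP genes in TPM (log scale) in each of the 3 control (blue) and 3 miR-322/-503 (orange) libraries, with a black line at the mean of each group; Kera is left out because it is at 0 in 4 libraries. The orange means of Fmod and Prelp sit more than 10-fold below the blue ones, while those of Dcn sit only just below.

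Bgn encodes biglycan, a class I proteoglycan that can also act as a signal at Toll-like receptors. Its level was 4901, 5156 and 5300 TPM in the control libraries and 2109, 2198 and 2088 TPM with miR-322/-503. All 3 miR-322/-503 libraries were low and close together, 2.37-fold below the control in the fit (log2 fold change -1.24, standard error 0.05). Bgn was the most abundant SLRP gene in both groups, ranking 22 among all genes by mean TPM in the control and 37 with miR-322/-503.

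Dcn encodes decorin, the closest relative of biglycan, which binds collagen and TGF-beta. Its level was 389, 410 and 394 TPM in the control and 341, 350 and 326 TPM with miR-322/-503. The groups did not overlap, but the gap was small, and the log2 fold change was -0.22 (standard error 0.06). Dcn kept 85.2% of its mean control TPM. Of all tested genes, 30.5% had a lower log2 fold change than Dcn. The ratio of Bgn to Dcn in TPM was 12.6, 12.6 and 13.5 in the control libraries and 6.19, 6.28 and 6.40 with miR-322/-503, so the 2 related genes did not differ between the groups in proportion.

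Aspn encodes asporin, a class I member whose core carries a stretch of aspartate residues and no glycosaminoglycan chain. It had 53.8, 48.4 and 68.4 TPM in the control and 4.80, 3.44 and 5.46 TPM with miR-322/-503, with a wide gap between the groups. Aspn was 12.2-fold lower (log2 fold change -3.61, standard error 0.22).

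Among the class II genes, Fmod had the largest difference. It encodes fibromodulin, which binds collagen I at the same region as lumican and takes part in the growth of fibrils. Its level was 201, 228 and 260 TPM in the control and 10.6, 9.62 and 10.1 TPM with miR-322/-503. The lowest control library was far above the highest miR-322/-503 library. The log2 fold change was -4.50 (standard error 0.12), a 22.6-fold lower level, and only 112 of the 18140 tested genes had a lower one. By mean TPM, Fmod ranked 600 among all genes in the control and 9003 with miR-322/-503.

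Prelp encodes a protein with a basic N-terminal region that binds heparan sulfate and links basement membrane to collagen. It had 228, 239 and 241 TPM in the control and 18.3, 22.9 and 16.9 TPM with miR-322/-503. The control libraries hardly differed among themselves, and miR-322/-503 replicate 2 was the highest of its group. The fitted level was 11.9-fold lower (log2 fold change -3.58, standard error 0.11). In the control, the ranges of Prelp and Fmod overlapped, whereas with miR-322/-503 every library had more Prelp than Fmod, with ratios of Fmod to Prelp of 0.579, 0.420 and 0.597 against 0.878, 0.955 and 1.08 in the control.

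Lum encodes lumican, a keratan sulfate proteoglycan known for keeping the cornea transparent. Its level was 25.1, 21.9 and 21.8 TPM in the control and 3.41, 1.84 and 2.15 TPM with miR-322/-503. Replicate 1 was the highest library in both groups, and the groups lay far apart. Lum was 9.15-fold lower (log2 fold change -3.19, standard error 0.22).

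Omd encodes osteomodulin, a keratan sulfate proteoglycan of mineralized tissue. It had 13.4, 12.8 and 23.3 TPM in the control and 3.56, 2.93 and 4.86 TPM with miR-322/-503. Replicate 3 stood above the other libraries of its group in both lines, and the groups did not overlap. Omd was 4.56-fold lower (log2 fold change -2.19, standard error 0.26).

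Kera, the gene of keratocan, a corneal keratan sulfate proteoglycan, was close to absent. The control libraries held 0, 5 and 14 estimated counts of it, and there were 0 in each miR-322/-503 library. A group at 0 allows up to 3 read pairs, or 12 estimated counts, in a library, for counting error only, so no fold is given for Kera.

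Ogn encodes osteoglycin, also called mimecan, the class III member of the set. Its level was 1232, 1178 and 1516 TPM in the control and 390, 314 and 427 TPM with miR-322/-503. Replicate 3 was again the highest and replicate 2 the lowest in each group, and the groups did not overlap. Ogn was 3.41-fold lower (log2 fold change -1.77, standard error 0.15).

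Podn encodes podocan, a class V member. It was the lowest of the 9 tested genes of the set, with 2.05, 2.47 and 2.37 TPM in the control and 0.240, 0.556 and 0.211 TPM with miR-322/-503. These values rested on 273, 345 and 379 estimated counts against 44, 79 and 33. Replicate 2 was the highest of the miR-322/-503 libraries by more than 2-fold, and was still below every control library. The log2 fold change was -2.65 (standard error 0.36), and -3.17 without miR-322/-503 replicate 2.

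**Figure D2:**
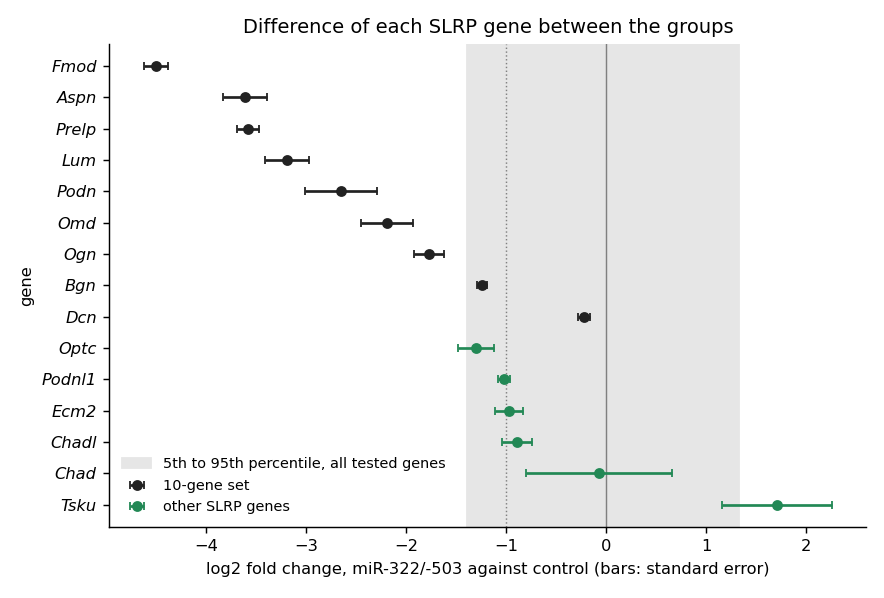
Log2 fold change of miR-322/-503 against control for the 9 tested genes of the set (black) and 6 other tested SLRP genes (green), with bars of 1 standard error; the grey band runs from the 5th to the 95th percentile of all 18140 tested genes (-1.39 to 1.33) and the dotted line marks -1. The points from Fmod to Ogn lie left of the band, Bgn and Dcn lie inside it, and Tsku is the only green point on the right.

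The order of the genes by level differed between the groups in part. In the control, mean TPM ran in the order Bgn, Ogn, Dcn, Prelp, Fmod, Aspn, Lum, Omd, Podn and Kera. The ranges of neighbours in this order were apart, except for Prelp and Fmod and for Lum and Omd. With miR-322/-503, Bgn was again first, but the ranges of Ogn (314 to 427 TPM) and Dcn (326 to 350 TPM) overlapped. Prelp and Fmod followed apart from each other, then Aspn, Omd and Lum, where the ranges of neighbours in the order overlapped.

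Summed over the 10 genes, SLRP transcripts were 7045, 7296 and 7827 TPM in the control libraries and 2880, 2903 and 2881 TPM with miR-322/-503. The sum with miR-322/-503 was 39.1% of that in the control, and the 3 miR-322/-503 libraries were nearly equal. The 10 genes made up 0.739% of all TPM in the control and 0.289% with miR-322/-503. Most of the sum was Bgn in both groups, with 69.3% (SD 1.5, n = 3) in the control and 73.8% (SD 1.69) with miR-322/-503. The share of Dcn was 5.39% ± 0.313 in the control and 11.7% ± 0.373 with miR-322/-503. Ogn made up 17.7% ± 1.62 and 13.1% ± 2.04. Fmod made up 3.10% ± 0.238 of the sum in the control and 0.350% ± 0.0184 with miR-322/-503, and Prelp made up 3.20% ± 0.102 and 0.670% ± 0.106. Bgn, Ogn and Dcn together thus formed nearly the whole sum in the miR-322/-503 libraries. These shares come from the same levels that chose the set and are descriptions.

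**Figure D3:**
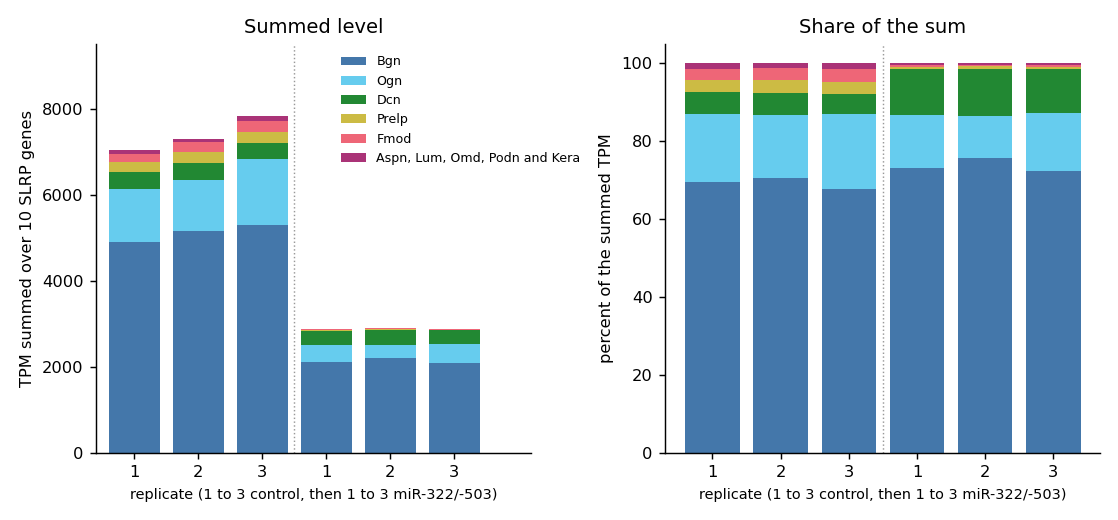
Summed TPM of the 10 SLRP genes (left) and the percent of that sum from each gene (right) in every library, controls first, with the replicate number on the x axis. The sum was between 7045 and 7827 TPM in the control and between 2880 and 2903 TPM with miR-322/-503, and the green share of Dcn is wider in the latter.

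Most of the genes lie in clusters, a property that the choice of the set did not use. Prelp (1:133910304-133921414, minus strand), Optc and Fmod (1:134037254-134048277, plus strand) lie within 151 kb on chromosome 1 of GRCm38. Dcn (10:97479609-97518143), Lum (10:97565128-97572703), Kera (10:97606879-97613692) and Epyc lie within 203 kb on chromosome 10. Ecm2, Aspn (13:49544443-49567565), Omd (13:49582462-49592822) and Ogn (13:49608046-49624501) lie within 120 kb on chromosome 13. Bgn (X:73483602-73495933) and Podn (4:108014791-108096445) lie alone.

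Not all genes of a cluster shared 1 size of difference. Dcn and Lum are adjacent genes on the same strand, with log2 fold changes of -0.22 and -3.19. The TPM ratio of Dcn to Lum was 15.5, 18.7 and 18.1 in the control and 99.8, 190 and 152 with miR-322/-503. Aspn and Ogn on chromosome 13 had log2 fold changes of -3.61 and -1.77, and their TPM ratio (Aspn to Ogn) was 0.0437, 0.0411 and 0.0451 in the control and 0.0123, 0.0109 and 0.0128 with miR-322/-503. In each of these pairs the ratios of the groups did not overlap. Omd lies between Aspn and Ogn and had a log2 fold change of -2.19, and its TPM ratio to Ogn did overlap between the groups. That ratio was 0.0108, 0.0109 and 0.0154 in the control and 0.00915, 0.00933 and 0.0114 with miR-322/-503. On chromosome 1, Optc lies next to Prelp and had a log2 fold change of -1.30, against -3.58 for Prelp.

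The genes around the clusters were compared with the same edgeR test, at an adjusted p under 0.05. Of 22 other tested genes within 500 kb of the chromosome 1 cluster, 4 were lower and 6 were higher, with a median log2 fold change of -0.01. Among all tested genes, 15.5% were lower and 13.2% were higher by this rule. Those past a log2 fold change of 1 in either direction were Btg2, an antiproliferative gene (-1.28, adjusted p = 1.32e-05), Sox13, a transcription factor (2.59, adjusted p = 0.00274), Chil1, a chitinase-like gene (1.71, adjusted p = 0.0158), and Adora1, an adenosine receptor (1.59, adjusted p = 0.0173). Gm1627, a noncoding gene between Prelp and Fmod, also passed (29, 24 and 27 counts in the control against 0 in each miR-322/-503 library). In the control Sox13 had only 31, 12 and 18 estimated counts and Chil1 only 29, 13 and 21. Adora1 had 234, 245 and 209 in the control and 1016, 831 and 287 with miR-322/-503, where replicate 3 lay close to the control. Whether the counting used strand is not given in the sources used here, so overlapping genes cannot be told apart where they share reads.

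Around the chromosome 13 cluster, 9 other genes were tested, of which none was lower in edgeR or in DESeq2 (1 at an unadjusted p under 0.05 in edgeR) and 2 were higher, Ninj1 (0.45, adjusted p = 0.00731) and Card19 (0.29, adjusted p = 0.0361). Their median was 0.09. Cenpp, a centromere protein gene on the minus strand, spans the whole SLRP cluster and differed by -0.26 (standard error 0.20, adjusted p = 0.404 in edgeR). No other gene was tested within 500 kb of the chromosome 10 cluster. Around Bgn, 6 of 20 tested genes were lower and 5 were higher, with a median of -0.09. They included L1cam, a neural adhesion gene (3.89, adjusted p = 8.27e-06), Plxnb3 (1.70, adjusted p = 0.00413), Srpk3, a muscle kinase (1.43, adjusted p = 0.000100), and Zfp185 (-1.65, adjusted p = 0.000386). Xlr3a (-4.43, adjusted p = 2.99e-05) and Xlr3c (12, 18 and 19 estimated counts against 0 in each miR-322/-503 library) belong to a family of near-identical copies, so their counts are uncertain.

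Podn stood in different surroundings. Of 14 tested genes within 500 kb, 8 were lower and none was higher in edgeR or DESeq2 (0 also at an unadjusted p under 0.05 in edgeR), with a median log2 fold change of -0.46. Over the whole of chromosome 4 the median was -0.19 (1045 tested genes). Glis1, a zinc finger gene (-3.13, adjusted p = 0.00628), and Echdc2 (-1.43, adjusted p = 0.00149) were the neighbours past -1. The part of this regional difference in the value of Podn was not tested.

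**Figure D4:**
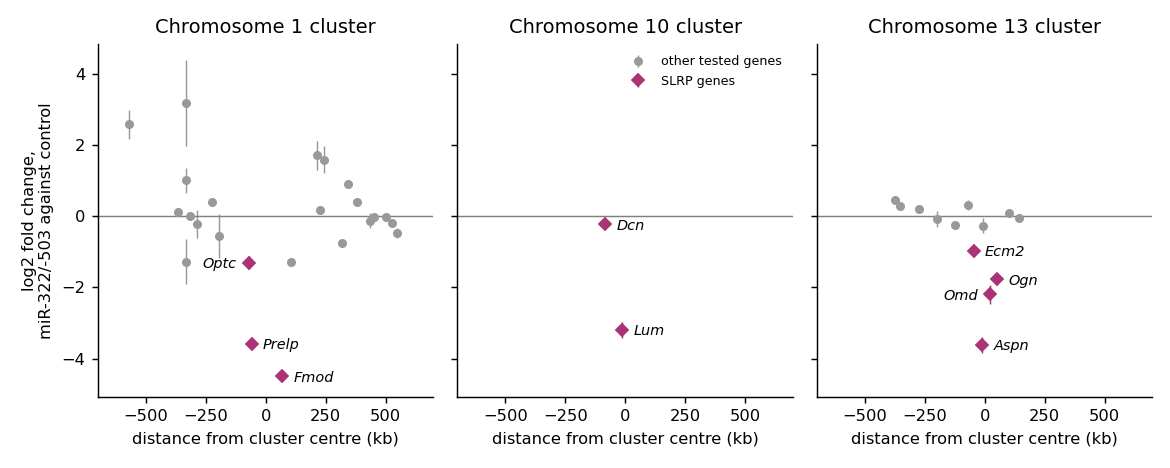
Log2 fold change of miR-322/-503 against control by distance from the centre of each SLRP cluster in kb, with bars of 1 standard error, for SLRP genes (purple) and other tested genes (grey); Gm1627 is left out because it was at 0 in a whole group. The grey points scatter around 0 with medians of -0.01 on chromosome 1 and 0.09 on chromosome 13, and Dcn lies near 0 beside Lum at -3.19.

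Within a group, the libraries also differed, and the spread between replicates was shared by neighbours on chromosome 13. Relative to the mean log2 CPM (counts scaled to library size) of its group, Omd lay at -0.01, -0.36 and 0.37 in the control and at -0.10, -0.37 and 0.47 with miR-322/-503. Aspn lay at -0.08, -0.21 and 0.29 and at 0.06, -0.41 and 0.35. All 4 tested SLRP genes of the cluster, Ecm2, Aspn, Omd and Ogn, were highest in replicate 3 and lowest in replicate 2 in both groups, an order seen in 5.0% of all tested genes (907 of 18140). No other SLRP gene of the set had it. Lum was highest in replicate 1 of both groups, at 0.12 and 0.48, while Dcn, its neighbour, stayed between -0.05 and 0.06 in all 6 libraries. Podn lay at 0.82 and Prelp at 0.22 in miR-322/-503 replicate 2. This order was noticed after the values were seen and has no test. The labels do not say whether the replicate numbers pair libraries of the groups, and no pairing is known.

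**Figure D5:**
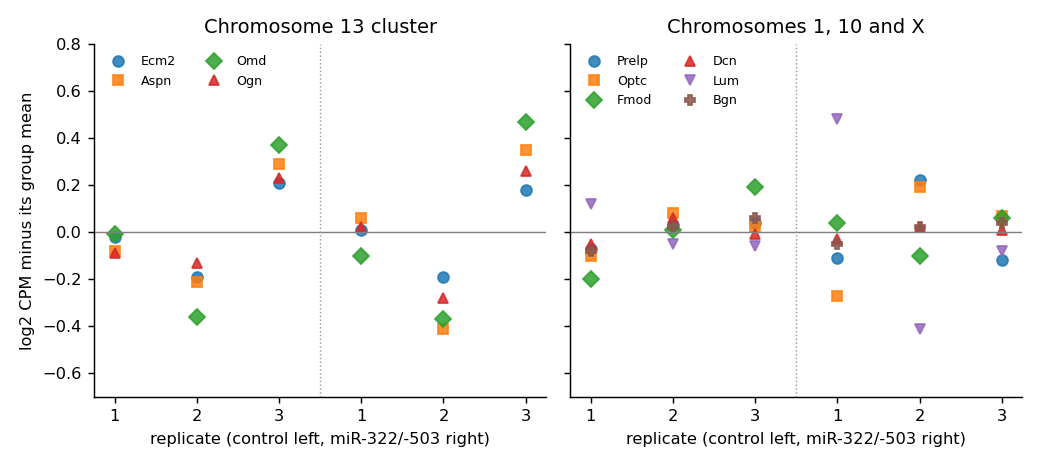
Deviation of log2 CPM from the mean of its own group in each library (control replicates left, miR-322/-503 replicates right), for the chromosome 13 cluster and for SLRP genes of chromosomes 1, 10 and X. All 4 genes of chromosome 13 are highest in replicate 3 and lowest in replicate 2 of each group, whereas Dcn and Bgn stay within 0.1 of 0.

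Promoter windows of 300 bases (250 before to 50 after the annotated start, RefSeq, GRCm38.p6) were matched for 8 of the 10 genes, all but Dcn and Lum. Both strands were searched for 5 short motifs. TATAAA is the core of a TATA box. GGGCGG is the GC box bound by Sp1. CANNTG is the E-box, which MyoD and myogenin bind. TGANTCA is the motif that AP-1 binds. CAGAC is the motif that SMAD proteins bind. No match overlapped a match of another of these motifs. TATAAA was found in 2 of the 8 genes, Ogn and Aspn, against 13.6% of the 32851 promoter windows in the table. CANNTG was found in 6 of the 8 genes and in 72.3% of all windows. GGGCGG was found in Bgn and Podn (35.7% of all windows), CAGAC in Fmod, Prelp and Podn (49.6%), and TGANTCA in none (7.81%). Podn had 2 windows, and a match in either was counted. A match is a description of the letters and not a site in use.

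The windows of Fmod, which had the largest difference, and of the 3 chromosome 13 genes of the set that varied together between replicates are shown, with TATAAA and CANNTG matches on either strand in capitals. Each lies on the plus strand. The Fmod window is chr1:134037004-134037303, the Aspn window chr13:49544193-49544492, the Omd window chr13:49582212-49582511 and the Ogn window chr13:49607765-49608064. Omd, which moved with Aspn and Ogn between replicates, held none of the 5 motifs.

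Fmod: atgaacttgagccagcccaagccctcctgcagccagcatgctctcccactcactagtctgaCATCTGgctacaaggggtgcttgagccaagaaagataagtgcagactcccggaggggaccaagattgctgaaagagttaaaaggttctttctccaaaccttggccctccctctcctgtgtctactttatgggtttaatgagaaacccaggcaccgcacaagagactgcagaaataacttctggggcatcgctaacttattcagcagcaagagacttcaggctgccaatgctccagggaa

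Aspn: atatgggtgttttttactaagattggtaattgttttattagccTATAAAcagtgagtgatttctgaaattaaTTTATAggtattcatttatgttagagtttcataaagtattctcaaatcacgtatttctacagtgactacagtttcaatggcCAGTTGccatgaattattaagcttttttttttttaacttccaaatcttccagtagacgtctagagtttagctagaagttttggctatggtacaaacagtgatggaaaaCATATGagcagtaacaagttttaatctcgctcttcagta

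Omd: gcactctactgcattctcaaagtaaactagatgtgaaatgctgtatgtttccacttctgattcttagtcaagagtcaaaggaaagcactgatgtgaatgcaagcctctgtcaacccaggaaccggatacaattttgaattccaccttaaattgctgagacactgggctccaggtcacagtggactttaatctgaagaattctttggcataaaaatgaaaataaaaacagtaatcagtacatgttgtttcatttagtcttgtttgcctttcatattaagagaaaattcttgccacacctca

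Ogn: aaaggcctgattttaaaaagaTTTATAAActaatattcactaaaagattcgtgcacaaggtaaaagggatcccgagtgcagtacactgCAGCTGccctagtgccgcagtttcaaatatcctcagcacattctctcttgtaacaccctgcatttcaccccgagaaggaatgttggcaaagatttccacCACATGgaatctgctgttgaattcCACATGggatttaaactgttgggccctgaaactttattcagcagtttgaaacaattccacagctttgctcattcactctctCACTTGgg

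The other genes of the family were outside the set, and the general rule over all genes was applied to them. Of 8 other SLRP genes, 6 were tested. By the rule of an adjusted p under 0.05 in edgeR, 4 fell and none rose, against 15.5% and 13.2% of all tested genes. At an unadjusted p under 0.05 in edgeR 1 was higher, and DESeq2 also found 1, namely Tsku. Podnl1, the closest relative of Podn, fell from 117, 111 and 109 TPM to 58.1, 55.8 and 47.9 TPM (log2 fold change -1.02, standard error 0.06, adjusted p = 2.55e-05 in edgeR). Podnl1 lies on chromosome 8, where 20 of 32 tested genes within 500 kb were also lower and 1 was higher, with a median of -0.79, and the part of this in its value was not tested. Optc, a class III gene known from the eye, fell from 4.43, 5.20 and 4.73 TPM to 1.54, 1.95 and 1.63 TPM (log2 fold change -1.30, standard error 0.18, adjusted p = 0.00151). Ecm2 (-0.97, adjusted p = 0.00194) and Chadl (-0.89, adjusted p = 0.00347) also fell.

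Tsku lay in the other direction without passing the edgeR test. It encodes tsukushi, a class IV member that binds BMP and Wnt proteins. It had 7.52, 4.61 and 5.58 TPM in the control and 20.4, 31.2 and 5.15 TPM with miR-322/-503. Replicate 3 of miR-322/-503 lay within the control range, while replicates 1 and 2 were above it, with a log2 difference of 1.71 (standard error 0.55, adjusted p = 0.0546 in edgeR). Chad, a class IV gene of cartilage, had at most 30 estimated counts in a library and a log2 fold change of -0.07 (standard error 0.73). Nyx had at most 20 estimated counts and was not tested, and Epyc was at 0 in every library.

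The partners of SLRP proteins were taken as 6 lists written with earlier results of these data known. All counts rest on the adjusted p of edgeR over all genes, by which 15.5% of tested genes were lower and 13.2% higher. The median log2 fold change of all tested genes was -0.01.

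Collagens, the main ligands of SLRPs, were mostly lower. Of 12 tested genes of fibrillar collagens and their associated collagens, 10 fell and 1 rose, with a median log2 fold change of -0.93. Col11a1, a minor fibril component that sets fibril diameter, fell from 7.31 ± 1.07 to 0.621 ± 0.0634 TPM (SD, n = 3; log2 fold change -3.66, standard error 0.14, adjusted p = 4.16e-06 in edgeR). Col12a1, a fibril-associated collagen, fell from 566 ± 27.6 to 105 ± 5.68 TPM (-2.34, adjusted p = 1.19e-06 in edgeR). Col1a2 fell from 1946 ± 62.8 to 840 ± 20.1 TPM (-1.19, adjusted p = 2.33e-06 in edgeR), and Col5a3 had a log2 fold change of -1.16. Col1a1, the partner chain of Col1a2 in collagen I and the single gene that rose, had 600, 582 and 627 TPM in the control and 841, 914 and 790 TPM with miR-322/-503 (0.53, standard error 0.05, adjusted p = 0.000323 in edgeR). It was named after its values were seen.

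Of 9 tested growth factor genes whose proteins bind SLRPs, 6 fell and none rose (0 rose also in DESeq2 and at an unadjusted p under 0.05 in edgeR), with a median of -1.0. Tgfb3, a ligand that decorin, biglycan and fibromodulin bind, fell from 314 ± 5.38 to 131 ± 8.64 TPM (SD, n = 3), which is -1.24 on the log2 scale (adjusted p = 8.48e-06 in edgeR). The values were -0.11 for Tgfb1 (adjusted p = 0.434 in edgeR) and 0.16 for Tgfb2 (adjusted p = 0.348), both named after their values were seen. Pdgfb fell by 2.21, Igf1 by 1.61 and Ccn2, a matricellular protein gene, by 1.30 on the log2 scale, with adjusted p-values of 5.03e-05, 3.46e-05 and 5.21e-05 in edgeR.

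Of 10 tested receptor genes, 5 fell and 3 rose in edgeR, with a median of -0.19, and 3 were lower with limma on log2(TPM + 1) and on log2(TPM + 0.1). Tlr2, a receptor for biglycan, fell from 43.2 ± 2.12 to 15.5 ± 0.378 TPM (SD, n = 3; log2 fold change -1.46, adjusted p = 5.50e-06 in edgeR), and Egfr, a receptor for decorin, fell by 1.39 on that scale (adjusted p = 6.54e-06). Met, another decorin receptor, rose (0.96, adjusted p = 0.00241), and Cd44, the hyaluronan receptor, rose from 188 ± 9.72 to 375 ± 38.8 TPM (0.86, adjusted p = 6.55e-05). Tlr4, the other Toll-like receptor of the list, also rose (0.52, adjusted p = 0.00474), so Tlr2 and Tlr4 moved in opposite directions. Tlr4 was named after its values were seen.

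Of 9 tested genes of proteases and protease cofactors that act on SLRPs, 5 fell and 1, Adamts4 (0.90), rose, with a median of -1.41. Mmp2, a gelatinase that can cleave decorin, fell from 835 ± 34.3 to 122 ± 11.1 TPM (SD, n = 3; log2 fold change -2.76, standard error 0.07, adjusted p = 6.56e-07 in edgeR). Tll1, of the family that removes the propeptide of biglycan, fell from 2.26, 1.40 and 1.51 TPM to 0.172, 0.122 and 0.158 TPM (-3.38, adjusted p = 0.000173 in edgeR), while its relative Bmp1 lay at -0.01 (adjusted p = 0.911). The aggrecanase genes Adamts1 and Adamts5 had log2 fold changes of -1.68 and -1.58, with adjusted p-values of 1.56e-06 and 2.99e-05 in edgeR. Adamts4, Bmp1 and Mmp13 were named after their values were seen.

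Some genes of enzymes that build the sugar chains were lower and some were higher. Of 20 tested genes of chondroitin and dermatan sulfate synthesis, 5 fell, 3 rose and 12 did not pass, with a median of -0.02. The shares over all tested genes were 15.5% lower and 13.2% higher. Dse, the epimerase that turns chondroitin into dermatan sulfate, fell from 41.7 ± 1.10 to 18.8 ± 1.20 TPM (SD, n = 3; log2 fold change -1.10, adjusted p = 1.02e-05 in edgeR). Chpf, a cofactor of chain elongation, fell by 1.13 on the log2 scale (adjusted p = 0.000551). Chst7 and Chst3, both sulfotransferases of chondroitin, moved in opposite directions, by -2.05 (adjusted p = 8.44e-05) and 0.50 (adjusted p = 0.00251). Of 7 tested genes of keratan sulfate synthesis, the chain of Fmod and Lum, 3 fell and 1 rose, with a median of -0.22. The log2 fold change was -0.84 for Chst2 (adjusted p = 0.000368), 0.51 for B4galt4 (adjusted p = 0.00312), -0.31 for Chst1 (adjusted p = 0.0417) and -0.22 for B4galt1 (adjusted p = 0.0447). Chst1 and B4galt1 were close to the threshold, and 1 gene of this list in place of 3 was lower without control replicate 1, 2 or 3, or without miR-322/-503 replicate 3.

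Markers of cells that are rich in SLRPs were measured beside these genes. Of 10 tested fibroblast and tendon markers, 7 were lower and none was higher in edgeR or DESeq2 (0 also at an unadjusted p under 0.05 in edgeR), with a median log2 fold change of -0.78. Their summed level was 1243 to 1488 TPM in the control and 829 to 1396 TPM with miR-322/-503, so the sums overlapped. Over all 6 libraries Tnc and Ly6a were the most abundant, while in the control Pdgfrb was above Ly6a on average. Pdgfrb fell from 288 ± 1.47 to 125 ± 7.34 TPM (SD, n = 3; log2 fold change -1.18, adjusted p = 5.50e-06 in edgeR). Ly6a ranged from 120 to 342 TPM in the control and from 260 to 743 TPM with miR-322/-503. Tnmd, a tendon marker, was at 11, 20 and 36 counts in the control and at 0 in each miR-322/-503 library, and Mkx had 251, 320 and 273 against 0, 5 and 0. Thy1 and Dpp4 had at most 12 counts in any library. The part of these markers in the SLRP differences was not tested.

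Of 15 tested myoblast and myotube markers, 8 rose and 1 fell in edgeR, with a median of 0.37, while 3 were lower in DESeq2 and 3 at an unadjusted p under 0.05 in edgeR. Their summed level was 3916 to 4302 TPM in the control and 4867 to 5081 TPM with miR-322/-503. Tnnt3, fast skeletal troponin T, had a log2 fold change of 1.04 and Myog, myogenin, of -0.74. Of 6 tested cartilage and bone markers, 2 fell and 1 rose. Their summed level was 56.9 to 58.1 TPM in the control and 56.6 to 65.8 TPM with miR-322/-503, with Sox9 and Runx2 the most abundant, and the defining cartilage genes Acan, Col2a1 and Matn1 had at most 12 counts in any library. Comp, a cartilage and tendon gene, was at 175, 194 and 161 counts in the control and at 0, 0 and 4 with miR-322/-503. Adipocyte markers summed to 12.98 to 15.0 and 16.2 to 19.4 TPM, with Pparg and Lpl the most abundant over all 6 libraries. Of the 3 tested, Cebpa fell from 4.94 ± 0.115 to 2.44 ± 0.341 TPM (SD, n = 3; adjusted p = 0.00112 in edgeR) and Lpl rose from 1.66 ± 0.236 to 7.01 ± 0.602 TPM (adjusted p = 3.03e-05 in edgeR), so in the control Cebpa was above Lpl. The defining markers Adipoq, Plin1 and Fabp4 had at most 12 counts in any library. Endothelial markers summed to 0.493 to 0.524 and 1.58 to 2.38 TPM, of which Tek, the only one tested, rose by 1.90 on the log2 scale, while Pecam1, Cdh5, Kdr and Cldn5 had at most 12 counts. Immune markers summed to 3.31 to 5.74 and 5.73 to 6.56 TPM, mostly Cd68 and Csf1r, and of the 2 tested none passed in edgeR or DESeq2 (adjusted p = 0.102 and 0.697 in edgeR, 1 at an unadjusted p under 0.05), with Ptprc and Adgre1 at or below 12 counts.

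The genes most like Fmod and Dcn over the 6 libraries were sought by the root mean square difference of their log2 CPM, centred on the mean of all libraries, among 9656 tested genes whose mean CPM was 10 or more. Closest to Fmod were Fat4, an atypical cadherin gene (difference 0.181, log2 fold change -4.42), Cilp, the gene of a cartilage matrix protein (0.183, -4.82), and Klhl13, a ubiquitin ligase adaptor gene (0.213, -4.60). Closest to Dcn were Mre11a, a DNA repair nuclease gene (0.0104, -0.22), Cdc5l, a splicing factor gene (0.0204, -0.18), and Ik (0.0256, -0.25). The genes like Fmod had large differences between the groups and those like Dcn had small ones, which the measure of likeness sets by itself.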

How the data were processed

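Per the methods, Trim Galore, HISAT2 (genome GRCm38) and StringTie were used by the authors in turn. Versions, gene annotation and strand setting are not given in the sources used here. The deposited count table holds estimated counts, not normalized and already whole, which were used unchanged. Covered bases gave 75 bases per count and about 4 counts per read pair, which overstates counting precision. For each library, deposited values of coverage, FPKM and TPM made by the authors were at hand, of which coverage served only to size a count. TPM was summed over rows of a gene. No column belonged to no sample.

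Genes were tested with edgeR 4.0.16 in R 4.3.3 (filterByExpr, TMM, glmQLFit, glmQLFTest, Benjamini-Hochberg adjustment over 18140 genes), without covariates. The standard error is the log2 fold change divided by the square root of F. TMM factors lay between 0.977 and 1.03. Every replicate pair differed by more than sampling noise (chi-square per degree of freedom 13.5 to 19.5). Alternatives used DESeq2 1.42.0, limma 3.58.1 on log2(TPM + 1) and log2(TPM + 0.1), glmTreat, other normalization and filters, counts per read pair, a replicate block, and leaving out each library. The computations were tested on simulated data.

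The 10 genes and all lists were chosen with earlier results of these data known. Named genes were the 10 genes, the other SLRP genes above 12 counts, up to 4 genes of each partner list with the largest absolute log2 fold change past an adjusted p of 0.05, neighbours within 500 kb past an absolute log2 fold change of 1 and that p, the 3 genes most like Fmod and Dcn, and the 2 most abundant genes of each marker list. Others are said to have been named after their values were seen, or are markers given for their near absence or largest difference. 3' UTRs came from GENCODE M21 as the longest per gene. SLRP protein sequences were not analysed here.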

Additional observations from a re-analysis of the deposited data

How the results depend on the processing

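Under each of the 15 alternatives, 8 SLRP genes were called lower and 0 higher, and the log2 fold changes lay between -4.60 and -4.37 for Fmod, -3.80 and -3.38 for Aspn, -3.70 and -3.52 for Prelp, -3.47 and -2.81 for Lum, -3.17 and -1.31 for Podn, -2.46 and -1.84 for Omd, -1.91 and -1.64 for Ogn, -1.28 and -1.21 for Bgn and -0.24 and -0.19 for Dcn. The value of -1.31 for Podn and that of -2.81 for Lum came from limma on log2(TPM + 1), where the pseudocount shrinks the change of low genes. The share of all tested genes called was taken for the main fit only (5.29% lower, 4.59% higher). Since the set was chosen from these same libraries, nothing is read from the repeated counts of SLRP genes. The lower genes of keratan sulfate synthesis numbered 1 in place of 3 with no filter on low counts and with both limma fits, and 1 to 2 across the fits that left out 1 library (1 in each without control replicate 1, 2 or 3 or miR-322/-503 replicate 3). The cause was not tested. Lower receptor genes numbered 3 in both limma fits in place of 5. With glmTreat, whose null is a change of up to 1 on the log2 scale and which is stricter by construction, there were 1 lower and 0 higher genes of chondroitin and dermatan sulfate synthesis, 0 and 0 of keratan sulfate synthesis, 4 and 0 collagens, 2 and 0 receptors and 0 higher proteases. Replicate numbers are not known to pair the libraries, and the correlations of deviations between the groups (0.131, 0.0687 and 0.0451) do not settle it. The replicate block gave 8 SLRP genes called lower, 6 lower genes of chondroitin and dermatan sulfate synthesis and 4 higher receptor genes, and changed no other of these counts. Widening the windows to 1 Mb gave neighbour medians of -0.08, -0.03, 0.21, -0.09 and -0.34 for the clusters of chromosomes 1, 10 and 13, Bgn and Podn, of which that of chromosome 10 is the value of the 1 neighbour tested there. Depth limits Kera, Nyx, Chad and, in the miR-322/-503 libraries, Podn.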
